A study of Mus musculus with 32 samples.

Results

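The genes described here encode neurotransmitter receptors of the mouse. They were taken as the protein-coding genes whose symbol begins Gria, Grik, Grin, Grm or Grid followed by a digit, Gabr, Gabbr, Glra, Glrb, Chrn, Chrm, or Htr followed by a digit. The rule gave 88 genes of 55573 in all, of which 21900 are protein coding. By family there were 4 AMPA, 5 kainate, 7 NMDA, 3 delta and 8 metabotropic genes for glutamate, 19 GABA-A and 2 GABA-B genes, 5 glycine genes, 11 neuronal nicotinic, 5 muscle-type nicotinic and 5 muscarinic genes for acetylcholine, and 14 for serotonin. Grid2ip, counted with the delta genes, came in by its name and encodes a scaffold protein that binds the delta receptor rather than a receptor.

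The RNA came from embryonic stem cells (ESC) of mouse strain 129S5/SvEvBrd in which Smarce1 carries the tag MD or the tag MD(R42A), and from neural cells made from them. The Smarce1 product, BAF57, belongs to the SWI/SNF complexes that remodel chromatin, and every group carries 1 of the 2 tags, so no untagged control is used here. The labels do not spell out MD. From general knowledge it is read here as the mitotic degron of cyclin B1, which removes a protein at the end of mitosis, and R42A as the form that does not. ESC were kept on gelatin with serum and LIF, as 4 R42A clones (A04, A10, A01, A02) and 4 MD clones (09, 30, 45, 47) with 3 libraries each. Neural cells carry the clone labels A04, A10, 09 and 30 with 2 libraries each, and were taken after 6 days in a neural medium that the labels spell both RHB-A and RHA-B. Each line is a clone, and the clone is the replicate, so n is 4 against 4 in ESC and 2 against 2 in neural cells.

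Ionotropic receptors are channels built from several subunits that open when transmitter binds, and metabotropic receptors signal through G proteins. Glutamate opens cation channels of the AMPA, kainate and NMDA classes and excites neurons. GABA and glycine open chloride channels, and acetylcholine and serotonin have receptors of both kinds. Many of these genes are kept silent outside neurons by REST, a repressor that binds a DNA element called RE1 and recruits deacetylases and demethylases.

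To show the letters around the start sites of receptor genes that moved in neural cells, the 250 bases before the start of Gria2, Grm2 and Htr1b are printed from RefSeq (build GRCm38.p6), 5′ to 3′ on the strand of the gene. Gria2 and Grm2 rose in neural MD cells and hold parts of the RE1 element in this window, and Htr1b fell. Windows were also found for Chrnb2 and Gabra2, which rose too and are not printed. In the search described below their closest stretches had 5 and 3 mismatches, and neither held a match. Whether a match goes with a change was not tested. Capitals mark the stretch matched to an RE1 search.
Gria2, chr3:80802836-80803085, minus strand: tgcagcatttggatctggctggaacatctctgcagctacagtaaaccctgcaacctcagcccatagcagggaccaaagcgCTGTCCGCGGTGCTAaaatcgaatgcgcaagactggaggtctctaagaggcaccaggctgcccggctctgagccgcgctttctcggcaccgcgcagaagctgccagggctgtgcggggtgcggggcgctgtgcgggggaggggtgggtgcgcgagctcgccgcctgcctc
Grm2, chr9:106656110-106656359, minus strand: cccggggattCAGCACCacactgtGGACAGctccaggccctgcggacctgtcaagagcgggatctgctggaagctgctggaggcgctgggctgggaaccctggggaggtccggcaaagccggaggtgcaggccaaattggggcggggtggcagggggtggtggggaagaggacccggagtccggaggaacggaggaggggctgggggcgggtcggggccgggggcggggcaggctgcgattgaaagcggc
Htr1b, chr9:81633833-81634082, minus strand: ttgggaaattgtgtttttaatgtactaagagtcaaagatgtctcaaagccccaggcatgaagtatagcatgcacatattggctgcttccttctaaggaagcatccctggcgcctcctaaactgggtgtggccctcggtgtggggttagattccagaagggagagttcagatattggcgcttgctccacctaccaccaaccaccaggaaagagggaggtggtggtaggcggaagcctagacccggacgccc

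RefSeq windows, from 250 bases before to 50 bases after a start, were found for 64 of the 88 genes, as 75 windows. They were searched on both strands for the RE1 parts CAGCACC and GGACAG with a spacer of 2 bases, which is 13 fixed letters. An exact match stood in 0 of the 75 windows and in 12 of all 32851 promoter windows (0.0365%). With at most 1 mismatch, 2 of 75 windows matched (2.67%), against 0.186% of all windows, and with at most 2 mismatches 6 of 75 (8%), against 1.92%. The 6 matches are shown so that they can be set beside the values of their genes, given below. Capitals mark letters equal to these parts, the spacer is in lower case, and each is written along the element.
Gria2, 170 to 156 bases before the start: tAGCACCgcGGACAG
Htr5a, 216 to 202 bases before: CgGCACCgtGGACAG
Grik2, 119 to 105 bases before: CAGCAgCggGGAaAG
Grin1, 126 to 112 bases before: gAGaACCagGGACAG
Gabrb1, 120 to 106 bases before: gAGCACCtcaGACAG
Chrm4, 210 to 196 bases before: CAGCACCgaGGgCAc

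A search for exact parts with a wider spacer of 7 to 10 bases was added after the Grm2 window had been seen. Such parts stood in 1 of 75 windows (1.33%) and in 15 of 32851 (0.0457%). The 1 window was that of Grm2, so its match was fixed in advance and these shares cannot show an excess. In Grm2 the spacer is 7 bases long and the stretch lies 240 to 221 bases before the start.
Grm2: CAGCACCacactgtGGACAG
A match describes letters and was not tested as a binding site. The median GC content was 58.7% in the windows of these genes and 52.7% in all windows.

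Library totals lay between 38699955 and 96424450 expected counts. Levels are given as CPM, counts summed per clone and scaled to library size, and comparisons between genes are made in CPM per kb of exon. Smarce1 itself was at 95.2 to 129 CPM in R42A and 112 to 125 CPM in MD ESC, and at 230 to 233 and 290 to 299 CPM in neural cells. The ESC difference was not called (0.09 ± 0.09, adjusted p = 0.438; -0.37, adjusted p = 0.0219, when chromosomes were scaled on their own), and the neural difference was (0.34 ± 0.09, adjusted p = 0.0293; -0.10, adjusted p = 0.58, scaled that way). A count of the gene does not show which tag it carries. Genes of chromosome 11, where Smarce1 lies, had a median MD-minus-R42A log2 difference of 0.45 in ESC and 0.48 in neural cells, and those of chromosome 8 of -0.45 and -0.28. There are 11 receptor genes on chromosome 11 and 3 on chromosome 8, and values scaled within a chromosome are given beside some of them. Scaling each chromosome separately also brought calls for Chrnb1, Grm8 and Htr5b in ESC (adjusted p = 0.00276, 0.0357 and 0.0495, against 0.0695, 0.0524 and 0.0564) and for the stage difference of Chrm2 (0.0484 against 0.0531), and ended that for the fall of Htr6 in R42A (0.055 against 0.0363). All neural libraries form 1 run of library numbers, so stage and library run cannot be told apart, and the 2 neural clones of a genotype differed about as much as libraries of 1 clone did: over genes at 1 CPM or more, the median absolute log2 difference of 2 libraries was 0.0751 between and 0.0883 within clones in R42A, and 0.0747 and 0.0731 in MD.

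Receptor transcripts as a whole were present in ESC, more abundant in neural cells, and most abundant in neural MD cells. Their summed level was 46.5 ± 4.27 CPM per kb in R42A ESC (SD, n = 4), 34.9 ± 4.78 in MD ESC (n = 4), 77.9 ± 0.462 in R42A neural cells (n = 2) and 115 ± 1.87 in MD neural cells (n = 2). The ESC sum was carried by few genes: Gabbr1 alone made up 47.8% of it in R42A ESC, and with Grik3 the share was 60.3%. Of 88 genes, 20 reached a mean of 1 CPM in R42A ESC, 23 in MD ESC, 40 in R42A neural cells and 45 in MD neural cells. Glra4 had 0 counts in every clone, and Gabra6 had 1 count in all, in neural MD.

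**Figure D1:**
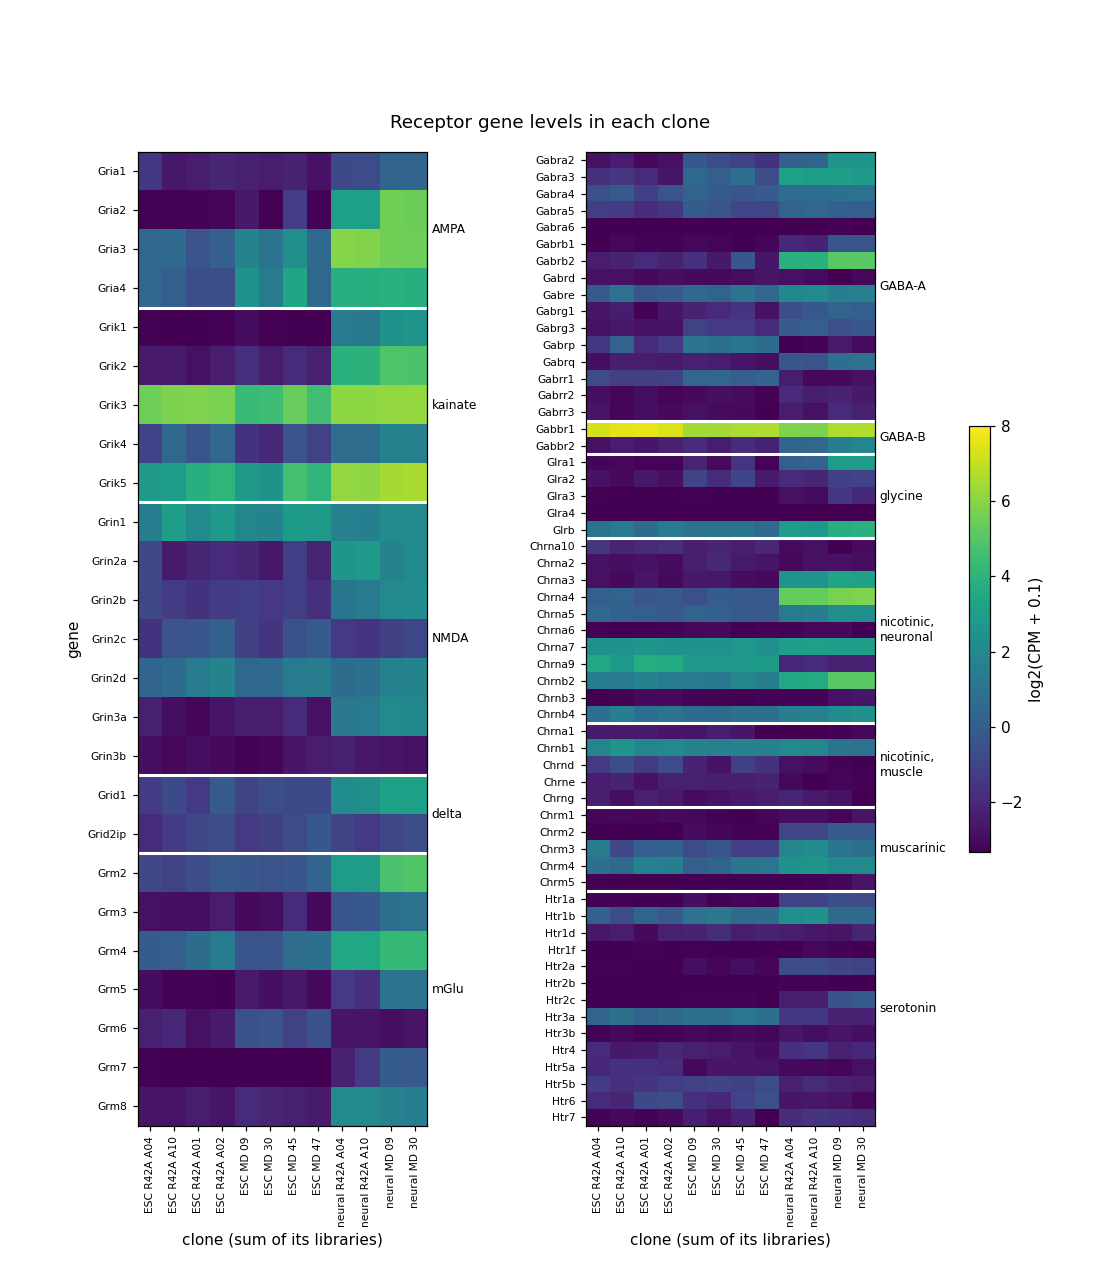
Level of 83 receptor genes (rows, by family) in each of the 12 clone sums (columns), coloured by log2(CPM + 0.1). The 4 neural columns are brighter than the 8 ESC columns for most glutamate, GABA-A and neuronal nicotinic genes, while Gabbr1 and Grik3 are bright in ESC, and the MD and R42A neural columns differ visibly in Gria2, Grm2 and Chrnb2.

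The number of receptor genes that changed is read against the share of all tested genes called by the same test (edgeR, Benjamini-Hochberg adjusted p under 0.05). A filter on low counts left 59 of the 88 genes in the ESC fit and 78 in the fit of neural cells with ESC. A gene that passes only because 1 group is high is likely to be called, so these counts describe the genes and support nothing further. In the test of MD against R42A in ESC, 14 were higher and 8 lower, where 17.1% of all tested genes were higher and 19.4% lower. In neural cells 29 were higher and 5 lower in MD, where 17.4% and 16.3% of all genes were. From ESC to neural cells, 49 rose and 13 fell in R42A (all genes, 37.9% and 40.4%), and 52 rose and 13 fell in MD (all genes, 40.3% and 41.0%). Whether MD acted differently at the stages was tested as well, and passed for 14 genes upward and 9 downward (all genes, 11.9% and 11.1%). That test uses the ESC of the 4 clone labels found at both stages, so its value is not the difference of the neural and the 8-clone ESC values printed for a gene.

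The median log2 change over the receptor genes that passed the filter was 0.09 for MD against R42A in ESC (all genes -0.035) and 0.67 in neural cells (all genes -0.002). From ESC to neural cells it was 2.03 in R42A (all genes -0.064) and 1.95 in MD (all genes -0.024). Leaving out a clone label drops its neural and its ESC sum, and so changes the spread estimate that the 4 groups share. A call lost in this way does not show that the change rests on 1 clone. The log2 changes of Glrb (1.00 to 1.11) and Grm5 (2.84 to 3.25) moved little over these fits, and that of Gabrp, near 0 counts, moved more (2.41 to 6.08). Without A04 or without A10 more genes were called, not fewer. Without clone 09 or without clone 30 fewer receptor genes were called higher in neural MD, and fewer of all genes were called higher as well. The median log2 change of the receptor genes was then 0.683 and 0.629, against 0.67 with every clone. The 8 called whichever clone was left out included Gria2, Gabra2, Gabrb2, Glra1, Grik2, Grm2 and Chrnb2. Away from chromosomes 8 and 11, 24 of 67 genes were higher and 4 lower in neural MD, and 12 of 50 higher and 8 lower in MD ESC. The shares of all genes away from these chromosomes were not computed. With each chromosome scaled separately, 29 of 78 receptor genes were higher and 4 lower in neural MD. Of all 23844 genes, 3978 and 3577 were. In MD ESC 16 of 59 receptor genes were higher and 8 lower, and 3637 and 3373 of all 21567 genes.

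Markers of cell types moved with these groups. Their counts stand beside the same shares of all genes, 17.4% higher and 16.3% lower in neural MD. In MD ESC these shares were 17.1% and 19.4%. All 12 neuron markers (Tubb3, Dcx, Map2 and others) were higher in neural MD than in neural R42A, with a summed level of 2323 to 2355 CPM against 865 to 889. Progenitor markers summed to 2686 to 2691 against 2829 to 2867 CPM, with 1 of 8 higher and 1 lower (Nes, -1.05 ± 0.15, adjusted p = 0.00241). Glia markers summed to 121 to 124 against 105 CPM (3 of 10 higher, 2 lower), smooth muscle and mesenchyme markers to 175 to 183 against 328 to 330 CPM (4 of 8 higher, 3 lower), endoderm markers to 66.9 to 71.8 against 117 to 134 CPM (0 higher, 4 of 8 lower), and endothelium and blood markers to 8.87 to 8.91 against 20.5 to 23.8 CPM (1 higher, 2 lower). Pluripotency markers summed to 46 to 53.9 against 47.8 to 52.8 CPM in neural cells (3 of 8 higher, 2 lower). Skeletal muscle markers summed to 0.882 to 0.915 CPM in neural MD and 1.83 to 2.29 in neural R42A (0 higher, 2 lower), with Myod1, Myog, Myf5, Myf6, Ckm and Mymk under 0.1 CPM. In ESC, 7 of 8 pluripotency markers were lower in MD (3969 to 4773 against 5062 to 6113 CPM) and 6 of 8 smooth muscle and mesenchyme markers higher (66.5 to 115 against 9.41 to 32.2 CPM), with neuron markers at 450 to 511 against 385 to 582 CPM. Endoderm markers summed to 108 to 133 against 55.2 to 78.3 CPM (1 of 6 tested higher, 0 lower). Skeletal muscle markers summed to 12.3 to 19.4 against 4.64 to 9.35 CPM (1 of 4 higher, 0 lower). Progenitor markers were at 459 to 814 against 375 to 619 CPM (3 of 7 higher, 1 lower). Endothelium and blood markers were at 115 to 174 against 73.3 to 127 CPM (3 of 6 higher, 0 lower). Glia markers were at 30.9 to 40.3 against 29.9 to 38.5 CPM (2 of 7 higher, 0 lower). The part of cell makeup in the receptor changes was not tested, and in bulk RNA fewer cells of a type and less RNA per cell cannot be told apart.

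**Figure D2:**
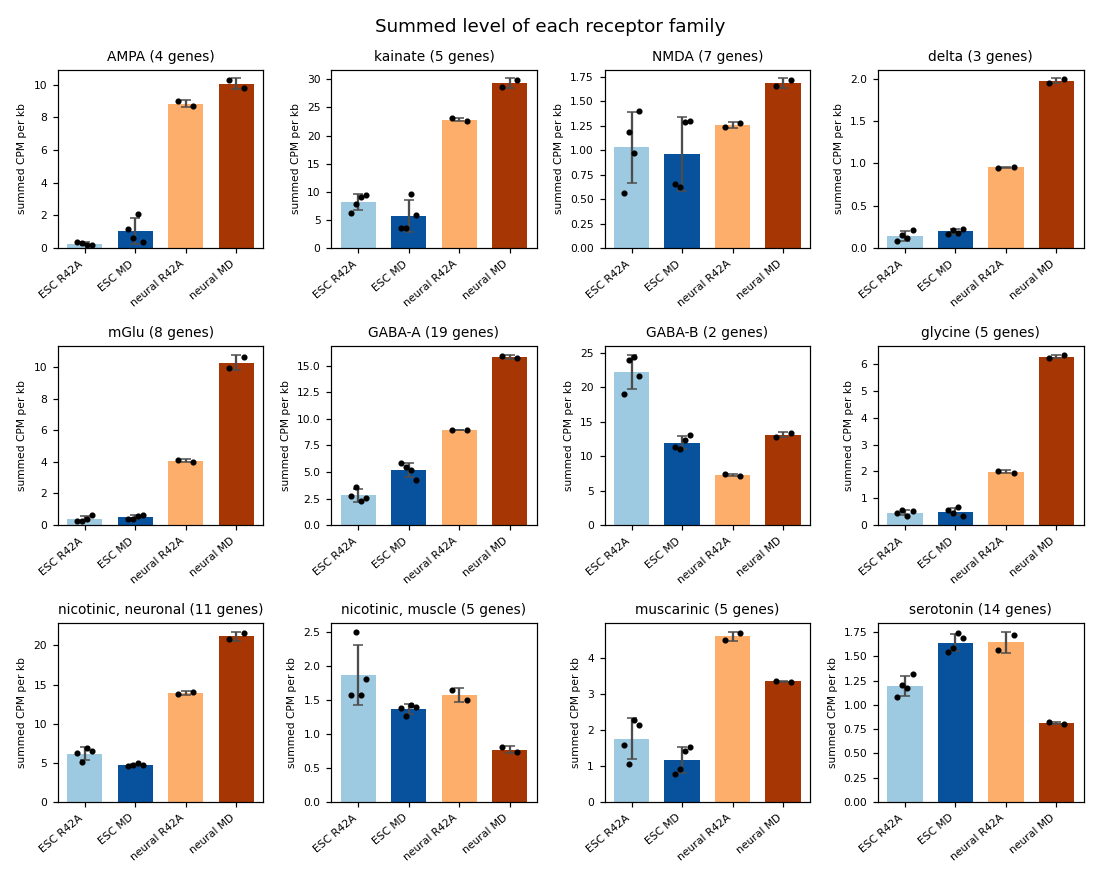
Summed level of each receptor family in CPM per kb, per group. Bars are the mean over clones, error bars the SD, and points single clones (4 per ESC group, 2 per neural group). GABA-B falls from 22.3 in R42A ESC to 7.24 in R42A neural cells, while kainate, AMPA, neuronal nicotinic, GABA-A and metabotropic glutamate sums are higher in both neural groups than in ESC.

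AMPA receptors carry most fast excitation in the brain. All 4 subunit genes rose from ESC to neural cells in both genotypes (all genes, 37.9% in R42A and 40.3% in MD). Their sum was 0.264 ± 0.0894 CPM per kb in R42A ESC (n = 4). It was 8.82 ± 0.229 in R42A neural cells and 10.1 ± 0.348 in MD neural cells (n = 2 each). The calls of Gria1 in R42A (lost without 09 or without 30) and of Gria4 in MD (lost without A04 or without A10) did not hold whichever clone was left out. Per kb the MD and R42A neural sums were thus close, and the subunits within them were not. In CPM the sums were 82 ± 2.08 in neural R42A and 107 ± 3.34 in neural MD (n = 2 each). Gria2 encodes GluA2, the subunit whose edited form makes AMPA receptors impermeable to calcium. It was at 8.31 and 8.34 CPM in the neural R42A clones A04 and A10 and at 45.9 and 44.1 CPM in the neural MD clones 09 and 30. The groups lie far apart, and the log2 difference was 2.43 ± 0.25 (SE, adjusted p = 0.000586).

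Gria3, the most abundant AMPA subunit per kb in neural cells, was at 60.9 and 58.4 CPM in neural R42A and at 47.1 and 45.6 CPM in neural MD. That difference was not called (-0.37 ± 0.20, adjusted p = 0.201). On the per-kb scale, Gria2 made up 6.07% ± 0.165 of AMPA subunit message in neural R42A and 28.8% ± 0.156 in neural MD (SD, n = 2 each), and Gria3 68.6% ± 0.34 and 46.8% ± 0.506. The clones of the genotypes do not overlap in either share. A two-sided exact permutation test of such a share gives p = 0.333, the smallest that 2 clones against 2 allow. The shares depend on the union exon lengths, 15548 bases for Gria2 and 9859 for Gria3. In CPM, neural MD means were 45 for Gria2 and 46.3 for Gria3, and neural R42A means were 8.32 and 59.6.

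In ESC, Gria2 was near the limit of counting. The R42A clones A04 and A10 held 2 counts in all, against 1934 in their neural cells, a ratio of 1868 (95% counting interval 516 to 15436). In MD the log2 rise to neural cells was 10.05 ± 0.40 (adjusted p = 5.4e-07). Gria3 rose by 5.49 ± 0.25 in R42A (adjusted p = 1.06e-06) and by 4.10 ± 0.23 in MD (adjusted p = 2.64e-06).

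Within ESC, Gria4 was at 1.27, 0.991, 0.565 and 0.558 CPM in the R42A clones A04, A10, A01 and A02 and at 5.14, 2.46, 9.93 and 1.31 CPM in the MD clones 09, 30, 45 and 47. Every MD clone lies above every R42A clone, but clone 47 only just, and the log2 difference was 2.51 ± 0.61 (adjusted p = 0.0124). The call was lost without A10 or without A02. Gria3 was at 1.22, 1.34, 0.648 and 1.01 CPM in R42A ESC and at 3.2, 1.88, 4.79 and 1.38 CPM in MD ESC (1.44 ± 0.40, adjusted p = 0.0209), again with clone 47 at the edge of the R42A range, and the call was lost without 09, A01 or A02.

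Kainate receptors modulate transmission on both sides of the synapse, and as a family they were the largest neural group per kb. Their sum was 22.8 ± 0.317 CPM per kb in neural R42A and 29.3 ± 0.874 in neural MD (n = 2 each). Grik5, an auxiliary subunit that needs Grik1, Grik2 or Grik3 to form channels, led all receptor genes in neural cells per kb, with levels of 71.3 and 69.1 CPM in R42A and 89.3 and 93.7 CPM in MD, a difference that was not called (0.38 ± 0.13, adjusted p = 0.0611). Its share of kainate message was alike in both genotypes, 59.4% ± 0.488 and 60.4% ± 0.258 (n = 2 each).

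Grik2, a channel-forming subunit, went from at most 0.199 CPM in any ESC clone to 14.7 and 15.4 CPM in neural R42A and 29.6 and 28.3 CPM in neural MD. The rise was 7.57 ± 0.28 on the log2 scale in R42A (adjusted p = 4.42e-07) and 7.53 ± 0.27 in MD (adjusted p = 3.27e-07), and the neural MD clones lay above the R42A clones (0.94 ± 0.19, adjusted p = 0.00832). Grik1 counted 1 in the R42A ESC clones A04 and A10 against 541 in their neural cells (ratio 1045, 95% counting interval 187 to 41353), and rose by 8.22 ± 0.42 in MD (adjusted p = 1.69e-06). It too was higher in neural MD, at 5.46 and 5.84 against 2.42 and 2.24 CPM (1.27 ± 0.26, adjusted p = 0.00985, not called without 09 or without 30).

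Grik3 differs from these in being high already in ESC. It was at 44.6, 54.9, 55.6 and 53.2 CPM in the R42A ESC clones and at 19.4, 22.2, 41.1 and 23.2 CPM in the MD ESC clones, with no overlap and clone 45 nearest to the R42A range. The log2 change of -1.01 ± 0.18 (adjusted p = 0.00273) held whichever clone was left out. In neural cells the genotypes were close, at 67.7 and 67.3 CPM in R42A and 70.6 and 74.5 CPM in MD (0.10 ± 0.11, adjusted p = 0.534). The difference of the MD effect between the stages was itself called (1.33 ± 0.16, adjusted p = 0.00197), though not without 09 or without 30. Grik4, the other auxiliary subunit, was lower in MD ESC (-1.58 ± 0.47, adjusted p = 0.0272, lost without 09, 30, A02 or 47), with 0.382, 1.3, 0.675 and 1.29 CPM in R42A and 0.218, 0.143, 0.641 and 0.353 CPM in MD, where A04 lies below clone 45.

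**Figure D3:**
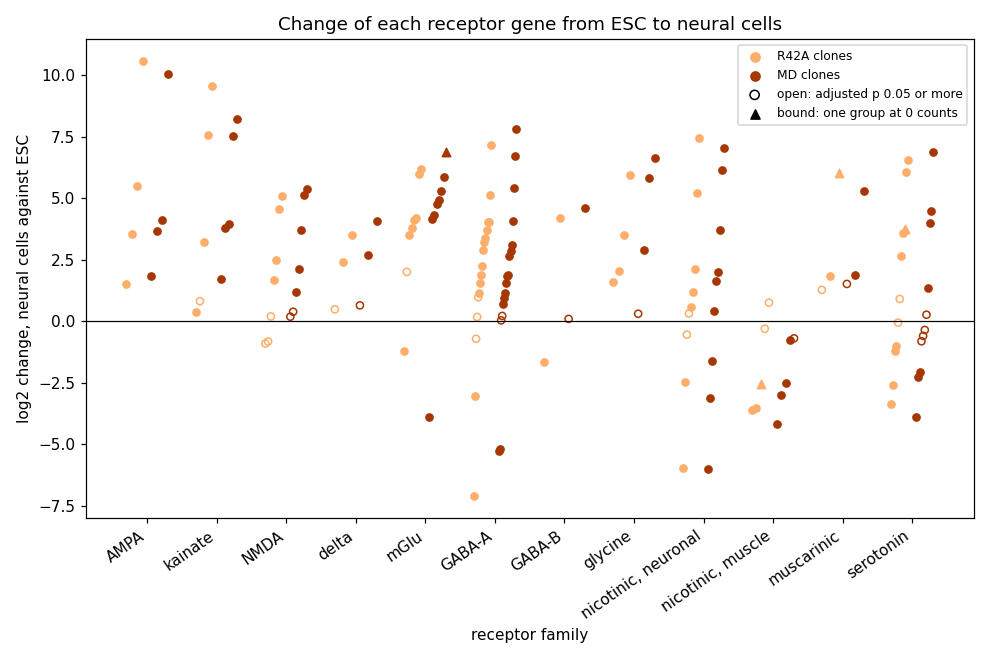
Log2 change from ESC to neural cells of each receptor gene that passed the filter on low counts, by family, in R42A (light) and MD (dark) clones. Open circles did not pass adjusted p 0.05, and triangles are bounds for genes with 0 counts in 1 group. All AMPA genes lie above 0 in both genotypes, and the muscle-type nicotinic genes that passed the test lie below.

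NMDA receptors need glutamate, glycine and depolarisation to open. The family sum was 1.25 ± 0.0293 CPM per kb in neural R42A and 1.69 ± 0.0493 in neural MD (n = 2 each). It was 1.03 ± 0.359 in R42A ESC and 0.964 ± 0.378 in MD ESC (n = 4 each). By edgeR, 0 of 6 tested genes were called between MD and R42A in ESC (all genes, 17.1% higher and 19.4% lower). Grin1, the obligatory subunit, was at 2.67, 7.94, 4.2 and 6.65 CPM in R42A ESC, 3.56, 3.35, 7.11 and 6.69 in MD ESC, 3.03 and 2.86 in neural R42A and 4.35 and 3.97 in neural MD. These ranges overlap between ESC and neural cells, and no comparison of Grin1 was called.

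The GluN2 subunits set the kinetics of the NMDA receptor. Grin2b and Grin2d were higher in neural MD (0.94 ± 0.20, adjusted p = 0.012, and 1.00 ± 0.16, adjusted p = 0.00325), neither without 09 nor without 30. Grin2a was at 6.26 and 6.66 CPM in neural R42A and 3.24 and 4.04 in neural MD, a difference that was not called (-0.83 ± 0.56, adjusted p = 0.299). Grin2a made up 49% ± 0.00943 of GluN2 message per kb in neural R42A and 21.9% ± 1.14 in neural MD, and Grin2d 32.3% ± 0.315 and 51.5% ± 1.55 (n = 2 each). Per kb, the most abundant GluN2 message thus differed between the genotypes, Grin2a in R42A and Grin2d in MD. The order in MD depends on the union exon lengths, 6658 bases for Grin2d, 17933 for Grin2a and 24842 for Grin2b. In CPM, neural MD means were 3.17 for Grin2d, 3.64 for Grin2a and 4.17 for Grin2b. Neural R42A means were 1.58, 6.46 and 2.17.

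The delta gene Grid1 encodes a receptor that bridges synapses through cerebellins more than it passes current. Grid1 was at 4.48 and 4.76 CPM in neural R42A and 8.55 and 8.58 CPM in neural MD (0.89 ± 0.23, adjusted p = 0.023). The groups are apart, and the call was lost without 09 or without 30. Grid2ip was not called in any comparison.

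Metabotropic glutamate receptors rose with neural induction and rose further in MD. Their sum was 4.07 ± 0.0785 CPM per kb in neural R42A and 10.3 ± 0.482 in neural MD (n = 2 each). In neural MD 6 of 8 genes were higher and 1 lower (all genes, 17.4% and 16.3%). Grm2, a receptor that lowers glutamate release, was at 7.52 and 7.27 CPM in neural R42A and 26.8 and 30.2 CPM in neural MD. The change of 1.94 ± 0.12 (adjusted p = 0.000121) held whichever clone was left out, and Grm2 went from 37.1% ± 0.179 to 56.6% ± 2.12 of metabotropic message per kb (n = 2 each).

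Grm5, which couples to calcium release and is linked to plasticity, was at 0.265 and 0.201 CPM in neural R42A and 1.9 and 1.92 CPM in neural MD (3.03 ± 0.42, adjusted p = 0.00199, lost without 09 or without 30). Grm3, like Grm2 a receptor that inhibits adenylyl cyclase, rose from ESC by 5.85 ± 0.26 in MD (adjusted p = 8.61e-07) and was higher in neural MD (1.23 ± 0.19, adjusted p = 0.00304). It was at 0.0226 to 0.16 CPM over all ESC clones, 0.681 and 0.771 CPM in neural R42A and 1.67 and 1.74 CPM in neural MD, with no overlap of the neural groups. Grm4 was at 11.3 and 10.7 against 19.2 and 19.2 CPM (0.80 ± 0.10, adjusted p = 0.00112), and the calls of Grm3 and Grm4 were lost without 09 or without 30. Grm7 was also higher (2.13 ± 0.49, adjusted p = 0.0199), with the same loss of the call, but stayed under 1 CPM.

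Grm8 went the other way. It rose from ESC by 6.19 ± 0.20 in R42A (adjusted p = 2.74e-07) and by 4.32 ± 0.18 in MD (adjusted p = 6.63e-07), and was at 4.17 and 4.04 CPM in neural R42A and 3.18 and 2.8 CPM in neural MD. The groups do not overlap, and the fall of -0.46 ± 0.15 was close to the threshold (adjusted p = 0.0499), passed it no longer when each chromosome was scaled separately (adjusted p = 0.0661), and was lost without A04, 09 or 30. Grm6, known from retinal bipolar cells, is the family member that fell with neural induction, by 1.21 in R42A (adjusted p = 0.0179, lost without A10, 09 or 30) and by 3.89 in MD (adjusted p = 3.28e-05). It was at 0.102, 0.15, 0.0413 and 0.0775 CPM in R42A ESC and 0.598, 0.684, 0.369 and 0.632 CPM in MD ESC, without overlap. The ESC difference was 2.64 ± 0.30 (adjusted p = 0.000296), or 2.19 with adjusted p = 0.000924 when scaled within chromosome 11, where Grm6 lies.

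GABA-A receptors are chloride channels, most often of alpha, beta and gamma subunits. The family, with 19 genes also the largest, held the most MD calls in ESC, 7 of 14 higher and 0 lower (all genes, 17.1% and 19.4%). In neural cells 7 of 17 were higher in MD and 0 lower (all genes, 17.4% and 16.3%). The genes were partly others, with Gabra2 among those called at both stages. The family sum was 2.79 ± 0.575 CPM per kb in R42A ESC and 5.19 ± 0.69 in MD ESC (n = 4 each), and 8.93 ± 0.00314 in neural R42A and 15.9 ± 0.168 in neural MD (n = 2 each).

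Gabra3, an alpha subunit common in immature brain, was at 0.21, 0.248, 0.152 and 0.062 CPM in R42A ESC and at 1.26, 0.991, 1.62 and 0.541 CPM in MD ESC. The groups do not overlap, and the difference was 2.75 ± 0.42 (adjusted p = 0.00123). In neural cells Gabra3 was at 8.69 and 8.04 CPM in R42A and 8.08 and 6.86 CPM in MD, which overlap (-0.17 ± 0.16, adjusted p = 0.472), and the stages differed in the MD effect (-2.49 ± 0.25, adjusted p = 0.00118, lost without 09 or without 30). Gabra5 and Gabrg3 had the same order of calls, higher in MD ESC (1.19 ± 0.21, adjusted p = 0.00242, and 2.40 ± 0.30, adjusted p = 0.000503) and not called in neural cells. Gabra5 was at 0.326, 0.295, 0.172 and 0.256 CPM in R42A ESC and 0.903, 0.689, 0.425 and 0.429 CPM in MD ESC, without overlap, and at 1.13 and 1.23 against 1.02 and 0.935 CPM in neural cells.

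Gabra2 was higher in MD at both stages. Its ESC clones were at 0.0419, 0.0812, 0.0207 and 0.0465 CPM in R42A and 0.769, 0.519, 0.362 and 0.211 CPM in MD (3.27 ± 0.35, adjusted p = 0.000244), and its neural clones at 1.01 and 1.11 against 5.84 and 6 CPM (2.48 ± 0.26, adjusted p = 0.000653). Both pairs of groups are apart, and both calls held whichever clone was left out.

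Gabrb2, a beta subunit gene on chromosome 11, was the leading GABA-A gene per kb in neural cells, at 14.6 and 14.8 CPM in R42A and 34.5 and 33.9 CPM in MD (1.21 ± 0.24, adjusted p = 0.00876, or 0.77 with adjusted p = 0.0419 when scaled within the chromosome). It had risen from ESC by 7.17 ± 0.35 in R42A (adjusted p = 1.67e-06) and 7.83 ± 0.35 in MD (adjusted p = 9.31e-07).

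Less abundant subunits changed too. Gabrb1, one of the genes with a near match to RE1, was at 0.15 and 0.109 CPM in neural R42A and 0.703 and 0.679 CPM in neural MD (2.41 ± 0.49, adjusted p = 0.00931), and Gabrq, the theta subunit, at 0.734 and 0.654 against 1.64 and 1.83 CPM (1.32 ± 0.34, adjusted p = 0.0231). The groups are apart for both, and both calls were lost without 09 or without 30. Gabra4, Gabre and Gabrg1 rose from ESC to neural cells in both genotypes, with the calls of Gabra4 and Gabre in MD lost without 09 or without 30, and were not called between MD and R42A at either stage.

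Gabrp and Gabrr1 were ESC transcripts. Gabrp, the pi subunit, known from reproductive tissue and epithelia, was at 0.251, 1.07, 0.158 and 0.271 CPM in R42A ESC and 1.93, 1.69, 2.04 and 1.52 CPM in MD ESC. The difference was 2.18 ± 0.49 (adjusted p = 0.00862), or 1.73 with adjusted p = 0.0225 when scaled within chromosome 11, where it lies. In neural cells Gabrp was at most 0.0756 CPM. A10 is the R42A clone nearest to MD, and the groups do not overlap. Gabrr1, the rho subunit best known from retina, was at 0.494, 0.346, 0.345 and 0.364 CPM in R42A ESC and 1.22, 1.25, 0.947 and 1.2 CPM in MD ESC (1.57 ± 0.17, adjusted p = 0.000245), also without overlap, and fell in neural cells by 3.04 on the log2 scale in R42A (adjusted p = 0.00137) and by 5.28 in MD (adjusted p = 7.95e-05).

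The GABA-B receptor is a G protein coupled dimer of the Gabbr1 and Gabbr2 products, and neither works alone. Gabbr1 was the most abundant receptor transcript of ESC, at 148, 186, 189 and 168 CPM in the R42A clones and 87.5, 85.6, 96 and 101 CPM in the MD clones. The groups lie well apart, and the change of -0.90 ± 0.08 (adjusted p = 9.2e-05) held whichever clone was left out. In neural cells the order was the opposite, with 55.8 and 53.8 CPM in R42A and 96.5 and 100 CPM in MD (0.84 ± 0.10, adjusted p = 0.00129, lost without 09 or without 30). Over the clone labels found at both stages, the MD effect differed by 1.76 ± 0.15 (adjusted p = 0.000688, lost without 09 or without 30).

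From ESC to neural cells Gabbr1 fell by 1.66 on the log2 scale in R42A (SE 0.11, adjusted p = 6.22e-06) and was not called in MD. Gabbr2, by contrast, was at most 0.174 CPM in any ESC clone and reached 1.18 and 1.27 CPM in neural R42A and 2.75 and 3.55 CPM in neural MD (1.36 ± 0.30, adjusted p = 0.0121, lost without 09 or without 30). Per kb, the ratio of Gabbr2 to Gabbr1 was 0.000497 ± 0.000187 in R42A ESC and 0.00166 ± 0.000468 in MD ESC (n = 4 each), and 0.026 ± 0.00202 and 0.0372 ± 0.00575 in neural cells (n = 2 each). Gabbr2 message was thus a small share of Gabbr1 message in every group.

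Glycine receptors, chloride channels of spinal cord and brainstem, combine Glra alpha subunits with Glrb. Glra1, the adult alpha subunit, was at 0.982 and 1.08 CPM in neural R42A and 7.38 and 7.21 CPM in neural MD (2.82 ± 0.38, adjusted p = 0.00165), and at 2.37 when chromosome 11, where it lies, was scaled separately (adjusted p = 0.00316). Glrb, which ties the receptor to its scaffold, was at 7.27 and 6.77 against 14.2 and 14.9 CPM (1.05 ± 0.15, adjusted p = 0.00222, lost without 09 or without 30). The groups are apart for both, and the per-kb ratio of Glra1 to Glrb was 0.284 ± 0.0333 in R42A and 0.968 ± 0.0488 in MD (n = 2 each). Glra1 rose from ESC by 5.93 ± 0.57 in R42A (adjusted p = 5.41e-05) and by 6.65 ± 0.48 in MD (adjusted p = 1.01e-05). Glra2, the fetal alpha subunit, was called higher in MD in ESC (2.62 ± 0.60, adjusted p = 0.00901) at under 0.5 CPM in every clone, with 0.0466, 0.0214, 0.0689 and 0.0387 CPM in R42A and 0.394, 0.17, 0.411 and 0.0752 CPM in MD.

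**Figure D4:**
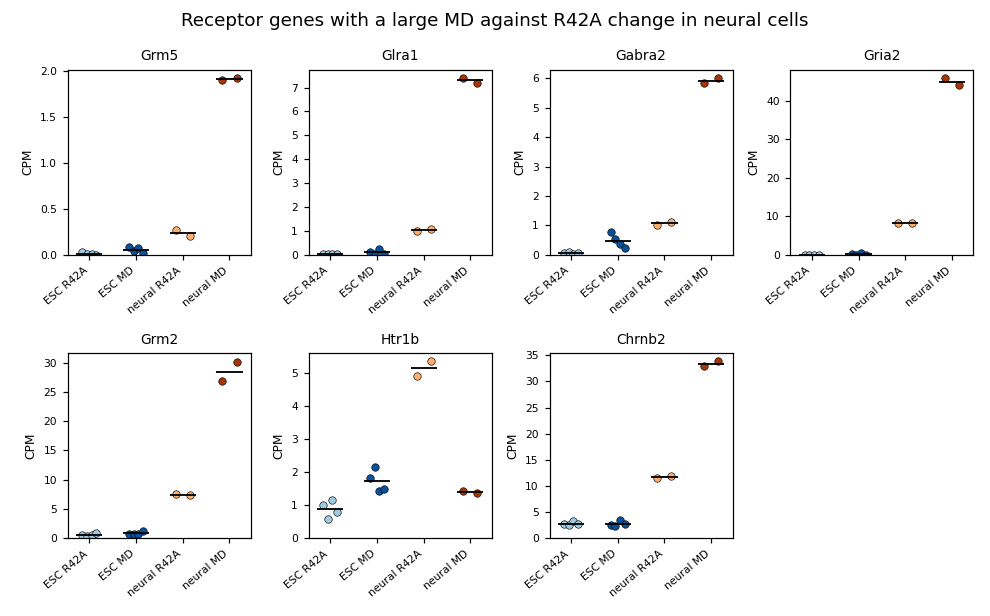
Level in CPM of 7 receptor genes with a large called log2 change between MD and R42A neural cells, in the 4 ESC and 2 neural clones of each genotype. Points are clones, and lines the mean; in neural cells 6 genes are higher in MD, such as Gria2 and Glra1, and Htr1b is lower.

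Nicotinic receptors are acetylcholine-gated channels of 5 subunits, and the alpha4 and beta2 products form the main type of the brain. Chrna4 went from 0.579 to 1.13 CPM over all ESC clones to 39.9 and 40.2 CPM in neural R42A and 52.7 and 55.9 CPM in neural MD. The log2 rise was 5.20 ± 0.19 in R42A (adjusted p = 3.9e-07) and 6.13 ± 0.20 in MD (adjusted p = 2.19e-07), and MD against R42A in neural cells missed the threshold (0.44 ± 0.15, adjusted p = 0.0639). Chrnb2, its partner, was at 11.4 and 11.9 CPM in neural R42A and 33 and 33.9 CPM in neural MD. This difference of 1.51 ± 0.08 had the smallest adjusted p among receptor genes in neural cells (9.21e-05) and held whichever clone was left out.

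In ESC the genotypes did not differ detectably in Chrnb2, at 2.64, 2.5, 3.15 and 2.65 CPM in R42A and 2.5, 2.29, 3.47 and 2.62 CPM in MD (-0.02 ± 0.13, adjusted p = 0.931), and the stages differed in the MD effect (1.59 ± 0.12, adjusted p = 0.000485, lost without 09 or without 30). Per kb, the ratio of Chrnb2 to Chrna4 was 0.174 ± 0.00437 in neural R42A and 0.369 ± 0.00837 in neural MD (n = 2 each), so beta2 message was below alpha4 message in both. Chrna3, the alpha subunit of autonomic ganglia, rose from at most 0.0695 CPM in ESC to 5.77 and 5.79 CPM in neural R42A and 9.8 and 9.19 CPM in neural MD (MD against R42A 0.71 ± 0.15, adjusted p = 0.0107). Chrna5, an accessory subunit, followed at 2.55 and 2.79 against 4.7 and 4.57 CPM (0.79 ± 0.15, adjusted p = 0.00715), and both calls were lost without 09 or without 30.

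Chrna7, which forms channels by itself, was not called between MD and R42A at either stage. Its small rise from ESC to neural cells was called in both genotypes. That call held whichever clone was left out in R42A, but not in MD. Chrna7 lay between 5.05 and 6.54 CPM over the 8 ESC clones and between 7.77 and 8.2 CPM over the 4 neural clones. Chrna9, known from the hair cells of the ear, is an ESC transcript here, at 10.8, 6.88, 12.7 and 12.1 CPM in R42A and 6.37, 6.69, 6.43 and 7.19 CPM in MD. The R42A clone A10 lies inside the MD range, and the change of -0.65 ± 0.16 (adjusted p = 0.0116) held whichever clone was left out. In neural cells Chrna9 was at most 0.151 CPM, a fall of 5.96 on the log2 scale in R42A (SE 0.28, adjusted p = 1.22e-06) and of 6.01 in MD (SE 0.28, adjusted p = 1.18e-06).

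Of the muscle-type nicotinic genes, which make the receptor of the neuromuscular junction, 0 of 5 rose and 3 fell in R42A and 4 in MD from ESC to neural cells, of which 3 and 0 were called whichever clone was left out. Of all genes, 37.9% rose and 40.4% fell in R42A, and 40.3% rose and 41.0% fell in MD. Chrna1 had 34 counts in the R42A ESC clones A04 and A10 and 0 in their neural cells. That is at least 5.87-fold lower against a floor of 3 counts over the group. In ESC Chrnb1 was not called (-0.42, adjusted p = 0.0695) unless scaled within chromosome 11 (-0.88, adjusted p = 0.00276). In neural cells it was at 4.02 and 3.71 CPM in R42A and 1.99 and 1.82 CPM in MD (-1.02 ± 0.23, adjusted p = 0.0137, or -1.47 with adjusted p = 0.00212 scaled within chromosome 11, lost without 09 or without 30). Chrnd was lower in MD ESC at a level under 0.6 CPM (-1.42 ± 0.48, adjusted p = 0.0474), and the call was lost without A04, A10, 09, 30, A02 or 47 and when chromosomes were scaled separately (adjusted p = 0.0601). Rapsn, which clusters the muscle receptor, was at 0.154 ± 0.0307 and 0.0806 ± 0.0143 CPM in neural R42A and MD (n = 2 each).

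Muscarinic receptors are the G protein coupled receptors for acetylcholine. Chrm4, an inhibitory type of forebrain, was lower in MD at both stages, and the only receptor gene of which that was called. It was at 1.65, 1.39, 3.04 and 2.83 CPM in R42A ESC and 0.982, 1.16, 1.94 and 2.09 CPM in MD ESC (-0.53 ± 0.13, adjusted p = 0.0119). In each genotype the clones of the second library series lie above those of the first, and MD is lower within each series. The series hold different clones, so series and clone set cannot be told apart. In neural cells it was at 5.55 and 5.63 CPM in R42A and 4.13 and 4.15 CPM in MD (-0.44 ± 0.14, adjusted p = 0.0496, lost without 09 or without 30). Chrm3 was called lower in MD ESC (-1.46 ± 0.46, adjusted p = 0.0354), with 2.67, 0.449, 0.937 and 1.05 CPM in R42A and 0.51, 0.721, 0.313 and 0.338 CPM in MD. Its groups overlap, A04 stands high, and of the 8 fits that left out a clone only that without A10 kept the call. Chrm2 had 0 counts in the R42A ESC clones A04 and A10 and 100 in their neural cells, at least 64.4-fold higher.

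Serotonin receptors were low, with 11 of 14 past the filter and a sum of 1.64 ± 0.11 CPM per kb in neural R42A and 0.813 ± 0.0131 in neural MD (n = 2 each). Htr1b, a presynaptic receptor that lowers transmitter release, made most of that difference. It was at 4.92 and 5.38 CPM in neural R42A and 1.42 and 1.37 CPM in neural MD, a fall of -1.89 ± 0.25 (adjusted p = 0.00172, lost without 09 or without 30). In ESC the order was the opposite, with 1, 0.568, 1.14 and 0.782 CPM in R42A and 1.83, 2.15, 1.43 and 1.49 CPM in MD, without overlap (0.97 ± 0.25, adjusted p = 0.015). The stage difference in the MD effect, over the clone labels found at both stages, was -3.26 ± 0.36 (adjusted p = 0.00162, lost without 09 or without 30). Neural R42A lies above every ESC clone, and neural MD lies just below the MD ESC clones.

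Htr3a, the channel-forming serotonin subunit, was at 1.14 to 2.06 CPM over the ESC clones and fell to 0.248 and 0.252 CPM in neural R42A and 0.113 and 0.115 CPM in neural MD (MD against R42A -1.13 ± 0.30, adjusted p = 0.0254, lost without 09 or without 30). Htr2c, which excites through calcium release, had 2 counts in the MD ESC clones 09 and 30 and 172 in their neural cells (ratio 142, 95% counting interval 38.6 to 1179), and was higher in neural MD than R42A at 0.605 and 0.812 against 0.0884 and 0.0922 CPM (2.95 ± 0.32, adjusted p = 0.00131, lost without 30). Htr5a, one of the genes with a near match to RE1, was under 0.21 CPM in ESC, lower in MD there (-1.97 ± 0.34, adjusted p = 0.00258), and at most 0.0441 CPM in neural cells.

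The 10 genes that did not pass the filter in the fit of neural cells with ESC were Chrm1, Chrm5, Chrna6, Chrnb3, Gabra6, Gabrd, Glra4, Htr1f, Htr2b and Htr3b. Their highest level in any clone was 0.0619 CPM, of Htr3b. Among the less abundant genes that did pass, Grin3a, an NMDA subunit that lowers calcium entry, rose by 5.09 ± 0.37 in R42A (adjusted p = 1.11e-05) and 5.36 ± 0.36 in MD (adjusted p = 6.9e-06), and Htr7 by 3.58 ± 0.54 (adjusted p = 0.000586) and 1.34 ± 0.44 (adjusted p = 0.0247, lost without 09 or without 30).

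Placing the MD effects of the stages side by side, 4 genes were called higher in MD in both (Gabra2 and Grm2 among them, the ESC call of Grm2 being lost without A04, 09, 30, A01 or 47), Chrm4 lower in both, Gabbr1 lower in ESC and higher in neural cells, and Htr1b higher in ESC and lower in neural cells. Of the 29 genes higher in neural MD, 24 also rose from ESC to neural cells in R42A and 27 in MD. Of all 78 receptor genes tested, 49 rose in R42A and 52 in MD. These comparisons share samples, so the counts describe the genes and are not independent. The shares of all genes with the same pairs of calls were not computed, so these overlaps cannot show an excess. The tests of the difference between stages were all lost without clone 09 or without clone 30 except that of Gria3, which was kept without 30 and lost without A04, A10 or 09, and over all genes those calls fell from 5472 to 77 and 114.

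**Figure D5:**
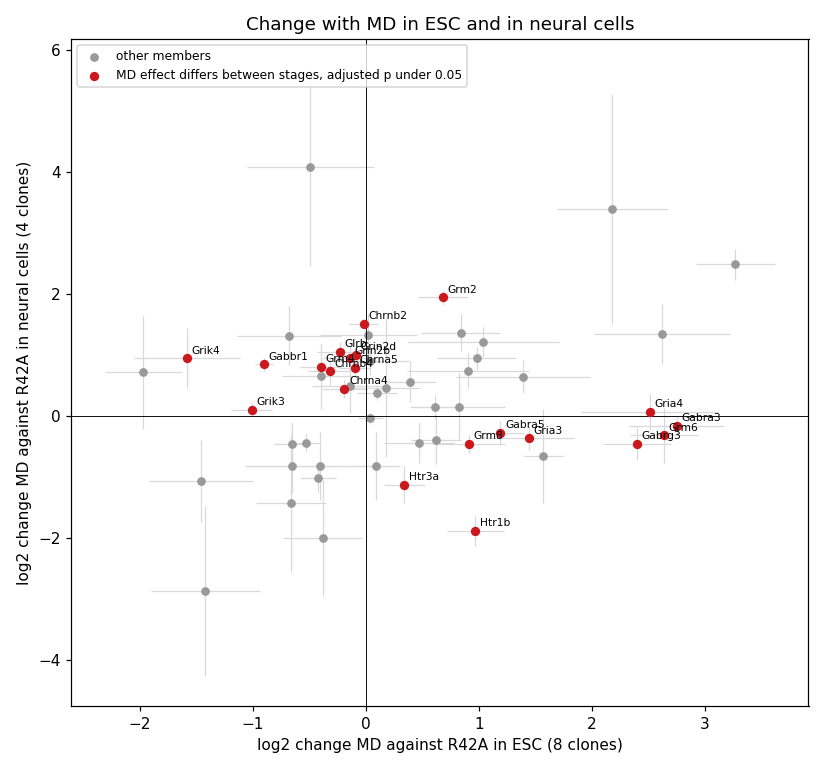
Log2 difference of MD against R42A in ESC (x axis, 8 clones) and in neural cells (y axis, 4 clones) for 55 receptor genes tested in both, with SE bars. Red marks 21 genes whose MD effect was called different between the stages, by a test on the 4 clone labels found at both; Gabbr1 lies at -0.90 in ESC and 0.84 in neural cells, and Htr1b at 0.97 and -1.89.

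Proteins that escort, anchor or align receptors moved with neural induction. Of 41 auxiliary subunits and scaffolds, 33 of 40 tested rose and 2 fell in R42A from ESC to neural cells, and 36 rose and 2 fell in MD (all genes, 37.9% and 40.4% in R42A and 40.3% and 41.0% in MD). Between MD and R42A, 16 of 40 were higher and 6 lower in neural cells (all genes, 17.4% and 16.3%), and 6 of 35 higher and 7 lower in ESC, close to the 17.1% and 19.4% of all genes. Cacng3, a subunit that carries AMPA receptors to the synapse, was at 0.194 ± 0.0378 and 1.38 ± 0.173 CPM in neural R42A and MD (2.82 ± 0.25, adjusted p = 0.000364, n = 2 for each mean), and Nrxn3, a presynaptic adhesion protein, at 1.41 ± 0.0988 and 7.21 ± 0.324 CPM (2.34 ± 0.48, adjusted p = 0.00913). Cacng5 was lower in MD ESC (-1.28 ± 0.22, adjusted p = 0.00259).

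Genes that make, load and take up the transmitters themselves went both ways with neural induction, and in neural MD more were called higher than lower. Of 27, 13 rose and 9 fell from ESC to neural cells in R42A (all genes, 37.9% and 40.4%). In MD 14 rose and 6 fell (all genes, 40.3% and 41.0%). Between the genotypes, 12 were higher and 3 lower in neural MD (all genes, 17.4% and 16.3%). Among the GABA genes, Gad2, which makes GABA, was at 0.399 ± 0.0641 CPM in neural R42A and 5.43 ± 0.395 in neural MD (3.76 ± 0.23, adjusted p = 0.000123). Slc32a1, the vesicular loader of GABA and glycine, was at 0.247 ± 0.0763 and 2.92 ± 0.0937 CPM (3.56 ± 0.28, adjusted p = 0.000243, n = 2 for each mean). In ESC 7 of 25 were higher in MD and 3 lower (all genes, 17.1% and 19.4%). The largest was Slc17a6, the vesicular glutamate loader, at 0.011 ± 0.00332 CPM in R42A and 0.793 ± 0.818 in MD (n = 4 each; 6.06 ± 1.25, adjusted p = 0.00559), where the SD exceeds the MD mean.

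The chloride carriers decide whether GABA-A and glycine receptors inhibit. Slc12a5 (KCC2), which lowers chloride in mature neurons, was at 11.6 ± 0.124 CPM in neural R42A and 19.1 ± 0.241 in neural MD (0.73 ± 0.09, adjusted p = 0.00131), and Slc12a2 (NKCC1), which raises it, at 82.7 ± 1.53 and 62.6 ± 1.8 CPM (-0.41 ± 0.11, adjusted p = 0.0254, n = 2 for each mean). Of the 8 genes of the REST complex, 0 were higher and 3 lower in neural MD (all genes, 17.4% and 16.3%). In MD ESC 3 were higher and 4 lower (all genes, 17.1% and 19.4%). Rest itself was at 362 ± 59.3 CPM in R42A ESC and 431 ± 84.3 in MD ESC (n = 4 each; 0.24 ± 0.05, adjusted p = 0.0058), and at 82.8 ± 2.47 and 68.2 ± 0.544 CPM in neural cells (n = 2 each; -0.28 ± 0.05, adjusted p = 0.0054). It fell with neural induction by 2.37 on the log2 scale in R42A and by 2.96 in MD.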

How the data were processed

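RNA-seq of 32 libraries was deposited as 1 table per library. Per the submitters' processing notes, reads were handled with STAR 2.7.1a, RSEM 1.3.0, Trim Galore 0.60 and DESeq2 on build mm10; the annotation and strand setting are not given in the sources used here, so reads of a gene and of an overlapping or antisense partner cannot be told apart, and reads shared by paralogs depend on the split RSEM made. The authors deposited expected counts for each gene, not normalized, of which 1.46% to 1.70% were not whole (tolerance 1e-06). Of 55665 rows, 92 spike-in rows with a total of 0 were left out. Per the labels' protocols, RNA was taken with TRIzol and libraries made with KAPA Hyper Prep.

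Counts were rounded and summed over the libraries of a clone, since nothing says that numbered libraries came from separate cultures. MD was tested against R42A with edgeR 4.0.16 (R 4.3.3) by the quasi-likelihood F-test with TMM scaling, filterByExpr (minimum count 10) and a threshold of 0.05 after Benjamini-Hochberg adjustment over all genes tested. The ESC fit held 8 clone sums with the library series as covariate (A04, A10, 09 and 30 first, A01, A02, 45 and 47 second, read from runs of library numbers). A second fit held the 8 sums of the 4 clone labels at both stages and gave the neural, stage and difference tests, so its ESC part rests on the first series. P-values measure the spread between the clones of a fit. In the second fit the 4 groups share 1 estimate per gene, so neural p-values and SE also carry the spread between ESC clones. The median absolute log2 difference of libraries between clones was 0.234 in first-series R42A ESC and 0.0751 in neural R42A. In MD it was 0.154 and 0.0747. SE is the log2 change over the root of F. Per-kb levels use union exon lengths of GENCODE M21, which covers 55180 of 55573 genes by identifier. A union length counts every annotated exon, used in these cells or not, so the order of genes per kb depends on it. Counting intervals (95%) and the floor of 3 counts cover counting error only.

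Clone labels pair the stages by cell line. Deviations of a label in ESC and neural cells correlated at -0.020 to 0.015, and library numbers at a median of 0.009. The tests were checked on simulated data. Alternatives were DESeq2 1.42.0, no filter, each clone left out, libraries as replicates, chromosomes scaled separately, a clone block, and the series alone. Clone values or their ranges are written out for the 10 called genes with the largest change at 1 CPM or more in each comparison and for the highest neural gene of each family per kb; others were chosen after their values were seen. Some genes that the rule names, and some others, are not reported here by name, though counts and family sums include them. The members, lists and tests were chosen with earlier results of these data known.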

Additional observations from a re-analysis of the deposited data

Results flagged for a closer look

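The MD effect differed between neural cells and ESC, by the test of the difference itself in edgeR on the clone labels found at both stages, for the 22 receptor genes given here (log2 scale, neural minus ESC). It was higher in neural cells for 13: Grik4 (3.13), Gabbr1 (1.76), Grm3 (1.75), Chrnb2 (1.59), Grik3 (1.33), Glrb (1.31), Chrnb4 (1.3), Grm4 (1.27), Grin2b (1.21), Grm2 (1.09), Grin2d (0.99), Chrna4 (0.94) and Chrna5 (0.84). It was lower for 9: Htr1b (-3.26), Gabrg3 (-3.07), Grm6 (-2.67), Gabra3 (-2.49), Grm8 (-1.87), Gria4 (-1.71), Gabra5 (-1.66), Gria3 (-1.39) and Htr3a (-1.3). The highest adjusted p among them was 0.0438, of Htr3a. The calls were lost without clone 09 and without clone 30, except that of Gria3, which was kept without 30. Gabbr1 and Htr1b are the genes whose MD effect was called in opposite directions at the stages.

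In 39 groups of 4 ESC clones at a mean of 1 CPM or more, over the receptor genes reported here, 2 held a clone that stood apart from the rest. These were the R42A clone A10 for Gabre, at 1.76 CPM and the highest of its group, and the MD clone 45 for Gabrr1, at 0.947 CPM and the lowest. Chance gives about 1 such group in 20.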

How the results depend on the processing

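Each of the 10 named genes of a comparison was recomputed under every alternative. The call was kept in 100 of 100 cases for the rise or fall from ESC to neural cells in R42A and in 100 of 100 in MD, kept in 133 and lost in 27 for MD against R42A in ESC, kept in 90 and lost in 10 in neural cells, and kept in 74 and lost in 26 for the stage difference; no case turned its direction. Counts of calls moved as follows. In ESC, where 14 receptor genes were higher and 8 lower in MD, the first library series alone gave 6 and 2, the second alone 9 and 4, no filter 5 lower and no series term 3 lower. Over all genes, 3680 were higher and 4182 lower of 21567 tested. The first series alone gave 1030 and 739 of 22578, and the second 2630 and 2249 of 21039. No filter gave 4097 lower of 35409, and no series term 1427 lower of 21567. In neural cells, with 29 higher and 5 lower, the 4 neural sums alone gave 44 and 11, no filter 3 lower, libraries as replicates 3 lower, and these with library number as replicate block 3 lower. Over all genes, 4152 were higher and 3878 lower of 23844 tested. The neural sums alone gave 6986 and 6657 of 20285, so calls rose over all genes too. No filter gave 3441 lower of 36424, libraries as replicates 4029 of 21321, and their replicate block 4094 of 21321. Stage differences of receptor genes downward, 9, became 15 with libraries as replicates and 14 with their replicate block. Over all genes, 2642 of 23844 became 3426 and 3493 of 21321.

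Leaving out 1 clone at a time gave 12 to 17 higher and 5 to 9 lower in ESC, 8 to 37 and 0 to 7 in neural cells, 42 to 55 rising and 7 to 14 falling from ESC to neural cells in MD, 47 to 50 and 11 to 13 in R42A, and 0 to 19 and 0 to 12 for the stage difference; the lone clone left at each stage was assumed to vary like the other groups. The low ends in neural cells and in the stage difference came without 09 or 30, and the cause was not tested. With the clone label as block, 49 receptor genes rose and 11 fell in R42A, 51 and 13 in MD, and 11 and 8 differed between stages. The pairing changed no such count by more than 1.5 times. Over all 23844 genes the block gave 8807 and 9343, 9313 and 9549, and 1947 and 1906. Depth limits the genes under 0.1 CPM, 37 to 44 of 88 in ESC and 25 to 27 in neural cells.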
